A study of Mus musculus with 8 samples.

Results

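Peroxisomes are single-membrane organelles that take in folded enzymes and break down fatty acids that mitochondria handle poorly. The genes examined here are a module of 35 that build the organelle or carry out its lipid metabolism. They are 13 peroxins, 3 transporters of the ABCD family and 19 enzymes, classed here as matrix enzymes wherever each protein lies. They were taken as the rows of the expression table whose identifier equals a listed symbol, and all 35 were found among 21358 genes. They were compared between 2 groups of mouse liver libraries made after 22 weeks of fasting every other day. The 4 FG libraries (93, 94, 95 and 96) carry the label feeding glucose, and the 4 SG libraries (101, 103, 104 and 105) the label starvation glucose. Both groups went through the same regimen, and the question set by the series is how liver transcription differs with the state in which glucose was taken. Genotype, strain, sex, age, glucose dose, time of collection and interval since food are not given in the sources used here, and no group without glucose or without fasting was analysed here. Nor do the sources say that each library is 1 animal, so a p-value here measures the spread between libraries, which may be technical.

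Peroxins bring membrane proteins to the organelle, carry enzymes across its membrane and control its number and size. Inside, beta-oxidation shortens very long-chain, branched and bile acid side chains, alpha-oxidation removes the carbon that blocks phytanic acid, and catalase destroys the hydrogen peroxide made by the oxidases. In rodent liver many of the genes for these enzymes are known targets of the nuclear receptor PPAR-alpha, which fatty acids activate.

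Levels are FPKM, fragments per length of gene and per counted total, so levels of different genes can be set side by side. Each library held 36545128 to 41977438 counted fragments, a depth recovered from the FPKM steps. A gene was tested when it reached 1 FPKM in at least 4 of the 8 libraries. The test was limma on log2(FPKM + 1), and a gene was called at a Benjamini-Hochberg adjusted p below 0.05 over the 9867 tested genes, with no minimum fold. Log2 fold changes are SG minus FG on that scale, which understates changes of low genes, and ± marks the SD of 4 libraries. Over all tested genes the median of these log2 values was -0.135, and 0.006 after median-ratio scaling of the libraries, so a direction of about that size holds on the FPKM scale alone. Hepatocyte markers summed to 54435 to 64741 FPKM in FG and 56189 to 72305 in SG, the highest of the 7 cell type lists read in both groups. Endothelial markers summed to 109 to 129 FPKM in FG and 87.7 to 95.9 in SG, and biliary markers to 22.2 to 28.7 and 13.3 to 19.4. Of the hepatocyte markers 2 of 7 rose (Apoa1 and Cps1). Of the endothelial markers 2 of 7 fell (Clec4g and Fcgr2b), as did 1 of 2 tested biliary markers (Spp1) and the 1 tested marker of lymphocytes and neutrophils (S100a9). These 4 falls were no longer called after median-ratio scaling (limma adjusted p from 0.0542 to 0.369). Macrophage markers (73.9 to 120 and 75.2 to 144 FPKM) and stellate markers (66.3 to 115 and 65.9 to 87.9 FPKM) overlapped between the groups with 0 calls by limma (0 also at an unadjusted p under 0.05), lymphocyte and neutrophil markers summed to at most 7.17 FPKM and adipocyte markers to at most 3.45, and no marker was at 0 in all libraries. In bulk tissue fewer cells of a type and less RNA per cell cannot be told apart.

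Of the 35 members, 34 passed the filter and 6 were called: 4 enzymes of the matrix rose in SG (Acox2, Phyh, Hacl1 and Decr2) and both receptors for matrix proteins fell (Pex5 and Pex7). The called share was 17.6% of the tested members beside 19.4% of all tested genes. By direction, 11.8% of members rose beside 3.73% of all genes, and 5.88% fell beside 15.6%. The members' log2 fold changes were positive in 17 and negative in 17, with a median of -0.001, whereas 30.1% of all tested genes had a positive value. The 4 rises all lay among the 21 tested matrix enzymes and transporters (19%; median log2 fold change 0.154), and both falls among the 13 peroxins (15.4%; median -0.145). That share of falls and that median were close to those of all tested genes (15.6% and -0.135). The 4 values of SG lay wholly above those of FG for 3 members (Acox2, Phyh and Hacl1; 4.35% of all tested genes did so) and wholly below for 4 (Pex3, Pex5, Pex7 and Acox3; 21.8% of all). Whether the classes of genes differ from each other was not tested. Leaving out 1 library ended part of the calls: 1 member, Acox2, was called without SG 103, 2 without FG 93 and 3 without SG 104. Calls over all tested genes also dropped in those fits, from 1912 to 1087, 834 and 1036.

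**Figure D1:**
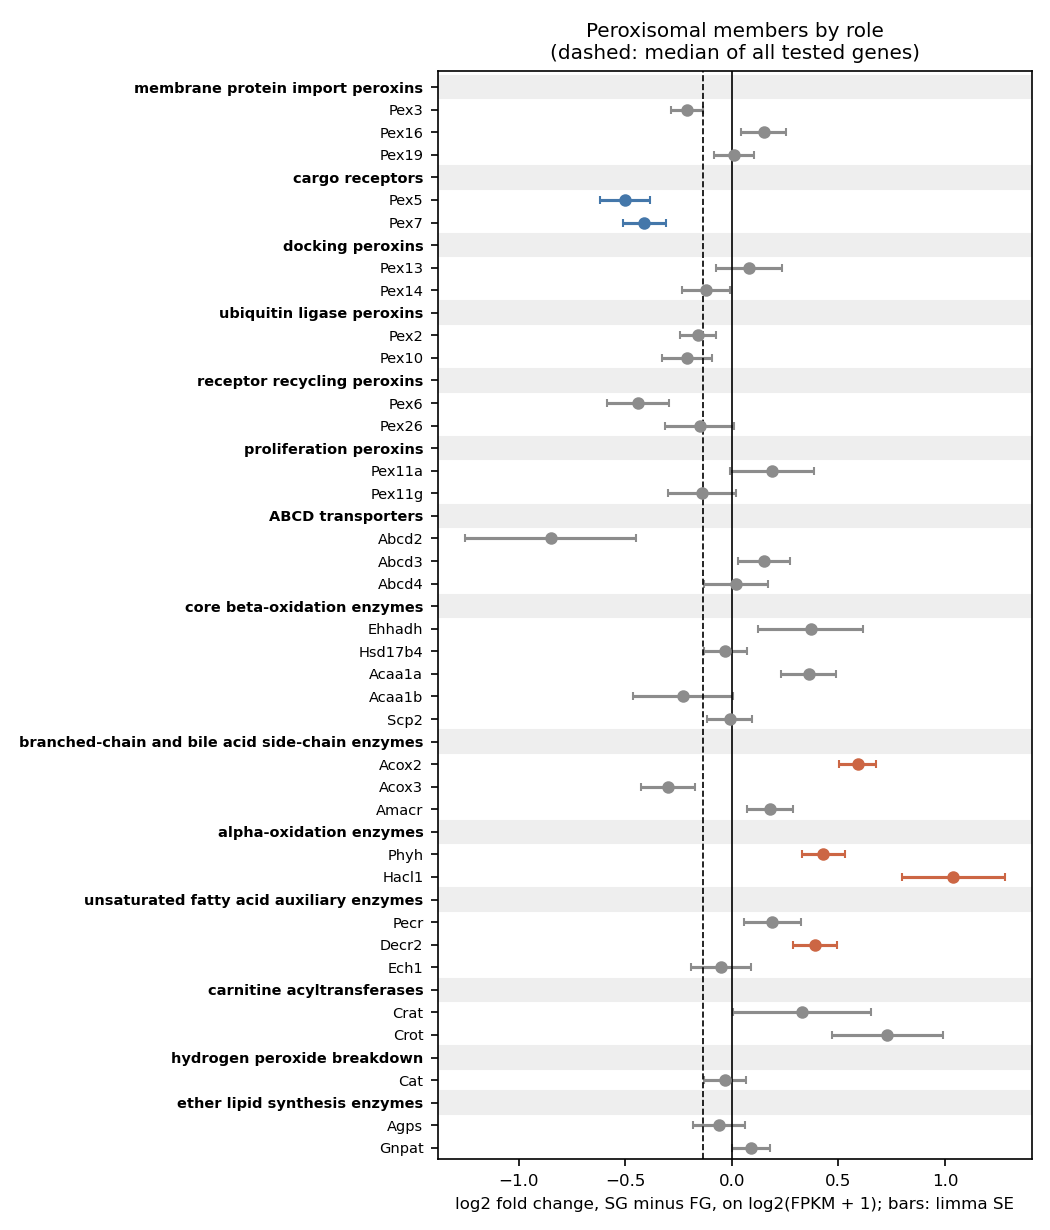
Log2 fold change of each of the 34 tested members (horizontal axis, SG minus FG on log2(FPKM + 1)), grouped by role on the vertical axis, with bars of 1 limma standard error; orange points were called higher in SG, blue points called lower, and grey points were not called. Pex5 and Pex7 lie left of the dashed median of all tested genes (-0.135), and Acox2, Phyh, Hacl1 and Decr2 lie to the right of 0.

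The import of matrix proteins begins with cargo receptors. Pex5 binds enzymes that carry the C-terminal targeting signal PTS1, and Pex7 binds those with the N-terminal signal PTS2 and enters the membrane together with a long form of Pex5. Their genes lie on different chromosomes (GRCm38): Pex5 (NCBI gene 19305) at positions 124396816 to 124415944 of chromosome 6 and Pex7 (NCBI gene 18634) at 19860090 to 19907674 of chromosome 10. Because both fell, 100 bases upstream of each gene are shown, from the RefSeq promoter table for GRCm38.p6, on the gene's strand, which is the minus strand for both. Capitals mark matches on either strand to the GC box GGGCGG, the CCAAT box CCAAT or the nuclear receptor half-site AGGTCA. The Pex5 stretch (chr6:124415945-124416044) runs from 189 to 90 bases before the start in the table and holds no match. The Pex7 stretch (chr10:19907690-19907789) runs from 115 to 16 bases before its start and holds 2 CCAAT boxes, 1 on each strand; the GC box of its 300-base promoter lies outside it.
Pex5: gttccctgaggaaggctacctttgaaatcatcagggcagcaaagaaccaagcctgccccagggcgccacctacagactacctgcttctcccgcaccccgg
Pex7: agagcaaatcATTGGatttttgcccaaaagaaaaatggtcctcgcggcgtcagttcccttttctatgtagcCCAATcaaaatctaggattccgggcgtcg

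Pex5 measured 37.7, 36.2, 44.5 and 33.7 FPKM in FG 93, 94, 95 and 96 and 30.8, 26, 26.9 and 22.7 FPKM in SG 101, 103, 104 and 105. All 4 SG values lay under the lowest FG value. Its mean of 38 ± 4.64 FPKM in FG fell to 26.6 ± 3.33 FPKM in SG, which is -0.50 on the log2 scale (SE 0.118, limma adjusted p = 0.0209). Pex7 measured 36.6, 36.1, 42 and 31.9 FPKM in the same FG libraries and 28.8, 26.2, 29.1 and 24.9 FPKM in the SG libraries. Again the groups did not overlap, and FG 95 was the highest and SG 105 the lowest library for both receptors. The Pex7 mean of 36.7 ± 4.16 FPKM fell to 27.3 ± 2.03 FPKM in SG, or -0.41 on the log2 scale (SE 0.101, limma adjusted p = 0.025). Pex5 and Pex7 stood at nearly equal levels throughout: the ratio of Pex5 to Pex7 FPKM ran from 1 to 1.06 in FG and from 0.909 to 1.07 in SG. Their falls are larger than the median of all genes by 0.37 and 0.28 on the log2 scale, yet both calls ended after median-ratio scaling (adjusted p = 0.0927 and 0.138). They also ended without FG 93, SG 103 or SG 105, that of Pex5 without SG 104 and that of Pex7 without FG 95 (highest adjusted p = 0.0566 for Pex5 and 0.0661 for Pex7).

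Before import, peroxisomal membrane proteins have to be placed by Pex19, a soluble chaperone, Pex3, its anchor in the membrane, and Pex16, which recruits Pex3. Pex16, the highest of these genes, was at 40.6, 41.7, 50.3 and 36.8 FPKM in FG and 50.4, 47.7, 46.2 and 43.2 FPKM in SG. The groups overlapped, and the difference of 0.15 on the log2 scale was not called (limma adjusted p = 0.344). Pex19 averaged 44.3 FPKM in each group (SD 4.85 in FG and 2.61 in SG; log2 fold change 0.01, limma adjusted p = 0.97). Pex3 was at 12.3 to 13.7 FPKM in FG and 10.6 to 11.2 FPKM in SG without overlap, but the difference of -0.21 on the log2 scale did not pass (limma adjusted p = 0.0809). Some reads counted for Pex3 may come from Adat2, with which it shares 249 exon bases on opposite strands. No source used here gives the strand setting of the counting.

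After docking at Pex13 and Pex14, the receptors are marked with ubiquitin by a ligase that holds Pex2 and Pex10 and pulled out again by the ATPase Pex6, which Pex26 anchors. Pex14 was at 35.5, 33.6, 39 and 29.7 FPKM in FG and 36, 28.9, 32.8 and 28.4 FPKM in SG, overlapping widely. It shares 630 exon bases with the opposite-strand gene Gm17029. Pex2 was at 7.1, 7.57, 6.66 and 7.82 FPKM in FG and 6.15, 6.78, 6.17 and 6.45 FPKM in SG, with 1 SG value (SG 103) above the lowest FG value. Pex6 was at 28.8, 23.9, 30.9 and 28.5 FPKM in FG and 25.3, 20.6, 21.1 and 15.5 FPKM in SG. SG 105 was lowest, and SG 101 exceeded FG 94. None of these genes passed: the log2 fold changes were -0.12 for Pex14, -0.16 for Pex2 and -0.44 for Pex6 (limma adjusted p = 0.458, 0.196 and 0.0603). Without SG 101 Pex6 passed (limma adjusted p = 0.0234), and 3 of the 13 peroxins were then called lower. In that fit 1896 of all 9867 tested genes were called lower. Pex13, at 12.4 ± 1.89 and 13.2 ± 2.67 FPKM, Pex10, at 3.09 ± 0.525 and 2.52 ± 0.32 FPKM, and Pex26, at 7.65 ± 1.49 and 6.81 ± 1.35 FPKM, were not called either (limma adjusted p = 0.748, 0.229 and 0.553).

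Pex11 proteins bend and lengthen the peroxisomal membrane ahead of division, and Pex11a is the form known for its induction by PPAR-alpha. Pex11a was steady in FG at 55.4, 51.1, 57.9 and 57.9 FPKM but ranged widely in SG at 46.2, 84.6, 82.6 and 50.2 FPKM. SG 103 and SG 104 were above every FG library, and SG 101 and SG 105 were below every one, and the difference of 0.19 on the log2 scale was not called (limma adjusted p = 0.521). Pex11g, at 12.7 ± 1.28 FPKM in FG and 11.6 ± 2.98 FPKM in SG, did not pass either (adjusted p = 0.57), and 1396 of its exon bases are shared with the opposite-strand gene Gm44775.

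**Figure D2:**
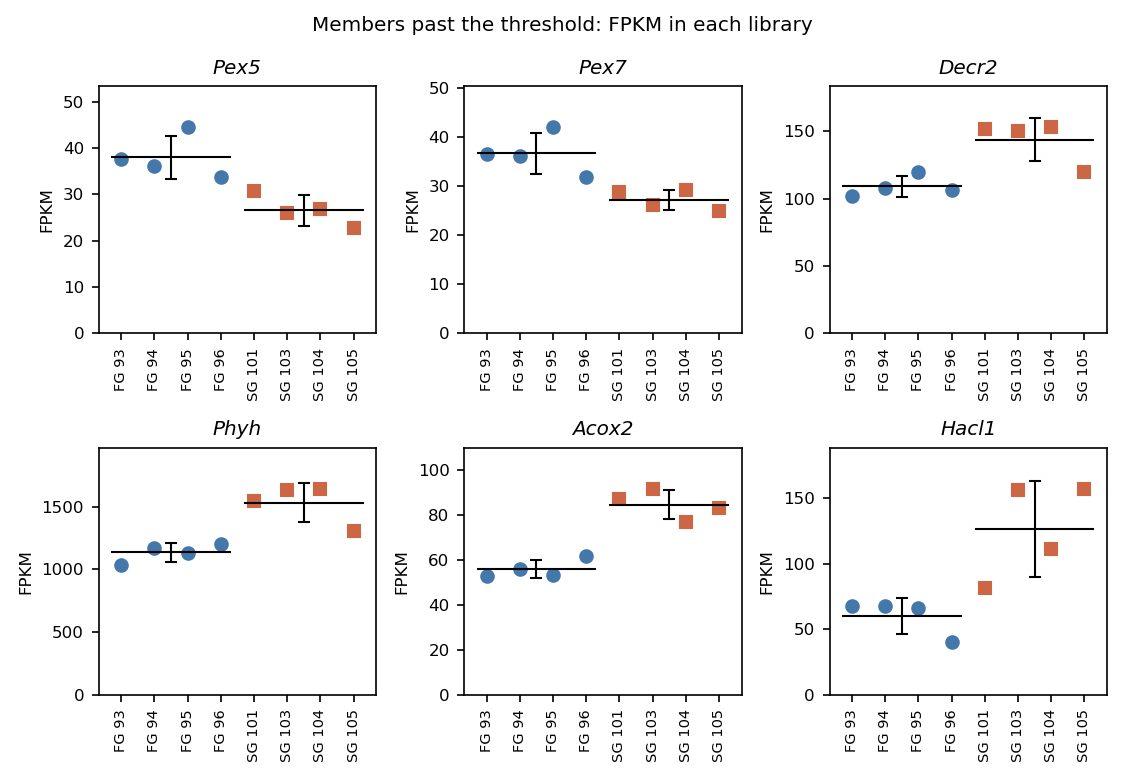
FPKM in each library (vertical axes, starting at 0; horizontal axes, library) for the 6 called members, with circles for FG, squares for SG, horizontal lines for group means and bars for the SD of 4 libraries. For Pex5 and Pex7 every SG square lies below every FG circle, for Phyh, Acox2 and Hacl1 every square lies above, and for Decr2 SG 105 (120 FPKM) sits level with FG 95.

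Transporters of the ABCD family import acyl-CoAs into the peroxisome. Abcd3, which carries branched-chain acyl-CoAs and bile acid precursors and is an abundant protein of the liver peroxisomal membrane, was at 108, 100, 104 and 91.1 FPKM in FG and 99.4, 135, 123 and 96.4 FPKM in SG. SG 103 and SG 104 were above all FG libraries and SG 101 and SG 105 lay within their range (log2 fold change 0.15, limma adjusted p = 0.395). Abcd2, a carrier of very long-chain and polyunsaturated acyl-CoAs, was much lower than Abcd3, at 6.15, 5.71, 5.44 and 2.99 FPKM in FG and 0.924, 0.982, 3.49 and 5.84 FPKM in SG. In SG 101 and SG 103 it was below 1 FPKM, whereas SG 105 exceeded 3 of the FG libraries, and the difference of -0.85 on the log2 scale (SE 0.402) was not called (limma adjusted p = 0.163). Those values rest on 206 to 1350 fragments per library, so counting error is small beside the spread. Abcd4, which despite its name is a lysosomal protein of cobalamin transport, stood at 3.92 ± 0.885 FPKM in FG and 3.97 ± 0.648 FPKM in SG.

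Acox2 was the member with the smallest adjusted p, and it acts at the first step of beta-oxidation of branched-chain fatty acids and of the side chain of bile acid precursors. It was at 52.7, 56, 53 and 61.4 FPKM in FG and 86.8, 91.5, 76.5 and 83.1 FPKM in SG. All 4 SG libraries lay well above all 4 FG libraries, and the 2 groups' spreads were small. Its mean of 55.8 ± 4.05 FPKM in FG rose 1.51-fold to 84.5 ± 6.33 FPKM in SG, or 0.59 on the log2 scale (SE 0.0884, limma adjusted p = 0.0046). The call held in all 10 alternative settings at that threshold and in the 8 fits that left out 1 library (highest adjusted p = 0.019). The gene (NCBI gene 93732) spans 8225511 to 8259019 of chromosome 14. Amacr, the racemase that turns branched-chain acyl-CoAs and bile acid precursors into the form the oxidases accept, was at 51.4 ± 5.19 and 58.5 ± 6.12 FPKM (limma adjusted p = 0.252). Acox3, another oxidase of branched-chain acyl-CoAs, was low: 4.95, 5.35, 4.8 and 5.35 FPKM in FG and 4.79, 4.7, 3.41 and 3.14 FPKM in SG. Its groups just failed to overlap in the direction opposite to Acox2, and the difference of -0.30 on the log2 scale was not called (limma adjusted p = 0.125). Acox3 shares 700 exon bases with the opposite-strand gene 4931431C16Rik. By mean FPKM, Acox2 stood more than 10 times as high as Acox3 in both groups.

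Both alpha-oxidation enzymes rose. Phyh hydroxylates phytanoyl-CoA, and Hacl1 cleaves the product to shorten the chain by 1 carbon. Phyh was among the most abundant members at 1032, 1171, 1133 and 1207 FPKM in FG and 1548, 1632, 1645 and 1307 FPKM in SG. Every SG library was above every FG library, with SG 105 nearest to FG. The FG mean of 1136 ± 75.3 FPKM rose 1.35-fold to 1533 ± 156 FPKM, or 0.43 on the log2 scale (SE 0.101, limma adjusted p = 0.0209). This call ended with no filter on low genes (0.0677), after quantile normalization (0.259), and without FG 93, SG 103 or SG 104 (highest 0.0652). Hacl1 was at 67.6, 67.7, 65.8 and 39.9 FPKM in FG and 81.4, 156, 111 and 157 FPKM in SG. Its groups did not overlap, but FG 96 was low and SG 101 lay close to the FG libraries. With a mean of 60.3 ± 13.6 against 126 ± 36.9 FPKM, it had the largest fold of the called members, 2.1-fold (log2 fold change 1.04, SE 0.242, limma adjusted p = 0.0205), and the call ended with no filter (0.0639) and without SG 103 or SG 105 (highest 0.0555). Hacl1 shares 1540 exon bases with Gm49387, annotated on the same strand.

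Phyh (NCBI gene 16922) lies at 4918996 to 4938743 of chromosome 2, and Hacl1 (NCBI gene 56794) at 31607226 to 31640965 of chromosome 14. As the most abundant called member, Phyh is shown with the 100 bases before its start (RefSeq, GRCm38.p6, chr2:4918896-4918995, plus strand), to be set beside the receptors that fell. This stretch holds none of the 3 motifs. The AGGTCA match of its whole 300-base promoter lies outside it.
Phyh: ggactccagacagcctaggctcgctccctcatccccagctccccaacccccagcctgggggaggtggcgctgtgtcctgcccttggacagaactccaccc

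Unsaturated fatty acids need auxiliary enzymes to bring their double bonds into line. Decr2, the peroxisomal dienoyl-CoA reductase (NCBI gene 26378, chromosome 17, 26081208 to 26090322), was at 102, 108, 120 and 106 FPKM in FG and 152, 150, 153 and 120 FPKM in SG. SG 101, 103 and 104 were well above all FG libraries and SG 105 was level with FG 95. From an FG mean of 109 ± 7.94 FPKM it rose to 144 ± 15.6 FPKM, or 0.39 on the log2 scale (SE 0.102, limma adjusted p = 0.03), while the exact two-sided permutation test gave p = 0.0571, where 0.0286 is the smallest p that 70 assignments allow. The call ended with no filter (0.0574) and in 5 of the 8 fits without 1 library, namely FG 93, FG 94, FG 96, SG 103 or SG 104 (highest 0.0865). Ech1, the dienoyl-CoA isomerase found in peroxisomes and mitochondria, was at 289, 242, 326 and 238 FPKM in FG and 257, 272, 314 and 214 FPKM in SG. The groups overlapped throughout (log2 fold change -0.05, limma adjusted p = 0.824). Pecr, the trans-enoyl-CoA reductase, was at 132 ± 15.6 and 151 ± 24.7 FPKM (limma adjusted p = 0.355).

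The beta-oxidation steps after the first held 0 called members of 5 by limma, beside 19.4% of all tested genes, and 1 (Acaa1a) with an unadjusted p under 0.05. With only 5 genes, a count of 0 does not show that these steps were unchanged. Hydration and dehydrogenation are run by 2 bifunctional enzymes, Ehhadh and Hsd17b4, and the final cleavage by the thiolases Acaa1a and Acaa1b and by Scp2, whose locus also encodes a sterol carrier protein. Scp2 was at 1038, 1207, 973 and 1086 FPKM in FG and 960, 1233, 1087 and 1008 FPKM in SG, with fully mixed groups (log2 fold change -0.01, limma adjusted p = 0.969). Hsd17b4 was also level, at 185 ± 10.4 and 183 ± 22.1 FPKM (limma adjusted p = 0.871). Ehhadh varied within both groups, from 88.7 to 169 FPKM in FG and from 103 to 186 FPKM in SG (log2 fold change 0.37, SE 0.245, limma adjusted p = 0.312). The 2 thiolase genes, neighbours on chromosome 9, had differences of opposite sign, 0.36 for Acaa1a and -0.23 for Acaa1b on the log2 scale, and neither passed (limma adjusted p = 0.0756 and 0.516). Acaa1a did pass after median-ratio scaling (0.0262), trimmed-mean scaling (0.0315) and quantile normalization (0.0316), with library weights and without SG 105 (0.0453).

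These thiolases are near copies, which bears on how reads were shared out between them. Their coding sequences in GENCODE vM21 are 1272 bases each and identical at 1228 (96.5%), and the longest identical run, 327 bases, exceeds the 150-base reads. Differences are unevenly spread: bases 259 to 318 of the coding sequence hold 11 of the 44, marked by capitals.
Acaa1a: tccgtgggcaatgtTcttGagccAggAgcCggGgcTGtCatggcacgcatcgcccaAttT
Acaa1b: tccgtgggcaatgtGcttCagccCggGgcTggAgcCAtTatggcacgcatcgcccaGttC

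Reads from such stretches can be assigned, whereas pairs with both reads inside the long identical run cannot. No source used here says how the authors counted the latter. With that limit, Acaa1b was the more abundant copy in every library. The ratio of Acaa1b to Acaa1a FPKM was 6.25, 5.08, 5.71 and 4.76 in FG and 2.47, 5.39, 3.9 and 3.18 in SG. It was lower in SG 101, 104 and 105 than in any FG library, and in SG 103 it lay within the FG range. Acaa1b itself was at 469, 368, 516 and 330 FPKM in FG and 276, 505, 431 and 258 FPKM in SG, and 224 of its exon bases are shared with the opposite-strand gene Dlec1.

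Carnitine acyltransferases pass shortened chains on for export to mitochondria. Crot, the carnitine octanoyltransferase, was at 43, 51.2, 36.8 and 36.6 FPKM in FG and 43.5, 115, 76.7 and 60.2 FPKM in SG. SG 103, 104 and 105 were above every FG library, and SG 101 was not. Its log2 fold change of 0.73 (SE 0.259) was the largest positive one among members not called (limma adjusted p = 0.0771). Crot passed with trimmed-mean scaling, with library weights and without SG 101 (adjusted p = 0.0189 without it). Crat, the acetyltransferase, averaged 10.4 ± 4.33 FPKM in FG and 13.4 ± 4.85 FPKM in SG (limma adjusted p = 0.501).

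Catalase, the enzyme that removes hydrogen peroxide, was among the most abundant members and hardly differed in mean: Cat was at 1172, 1108, 1178 and 1113 FPKM in FG and 1231, 1217, 1090 and 959 FPKM in SG (log2 fold change -0.03, limma adjusted p = 0.849). The SG values enclosed the FG values on both sides. Ether lipids such as plasmalogens are begun in peroxisomes by Gnpat and Agps, with the fatty alcohol supplied by Far1. Gnpat was at 17.9, 15.2, 14.8 and 14.8 FPKM in FG and 15.6, 17.2, 17.9 and 16.4 FPKM in SG (limma adjusted p = 0.5). It shares 280 exon bases with Gm16163 on the same strand and 88 with 2810004N23Rik on the opposite strand. Agps was at 1.63 ± 0.27 and 1.54 ± 0.332 FPKM (limma adjusted p = 0.776). Far1 was the member left out by the filter, at 0.301 ± 0.181 FPKM in FG and 0.422 ± 0.12 FPKM in SG on 13 to 111 fragments per library. 

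**Figure D3:**
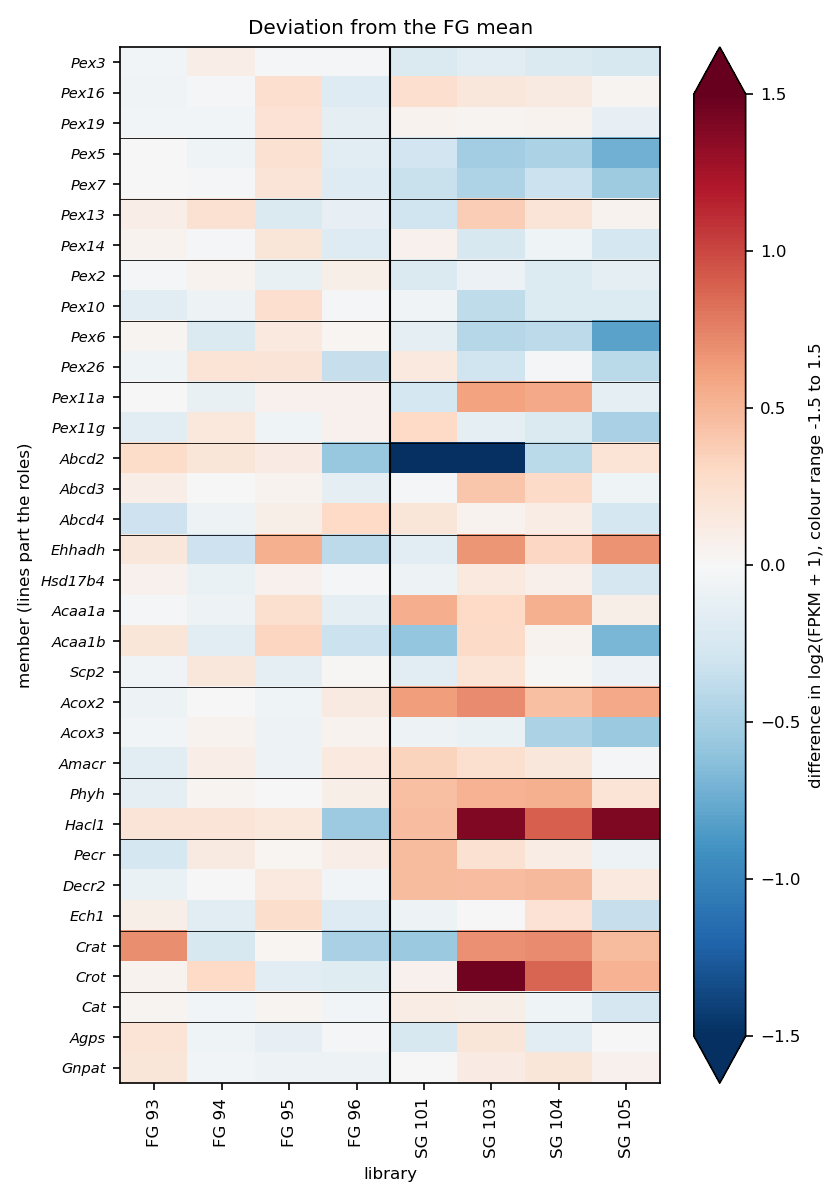
Difference of each tested member (rows, in order of role) from its own FG mean, in log2(FPKM + 1), for each library (columns); the colour scale runs from 1.5 below the mean (blue) to 1.5 above it (red), and values beyond it take the end colours. Acox2, Phyh, Hacl1 and Decr2 are red in all 4 SG columns and Pex5 and Pex7 blue in all 4, while Crot and Pex11a are reddest in SG 103 and SG 104.

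Set out by library, the medians of the matrix enzymes overlapped between the groups, and those of the peroxins did not. The medians of all tested genes did not overlap either, at -0.034 to 0.053 in FG. The median deviation of the 13 peroxins from their FG means was -0.137, -0.168, -0.201 and -0.236 in SG 101, 103, 104 and 105 on the log2 scale, beside -0.162, -0.108, -0.112 and -0.175 for all tested genes in the same libraries. In FG 93, 94, 95 and 96 the peroxin medians were -0.03, -0.015, 0.18 and -0.121, so SG 101 lay just under the lowest FG library. By these medians the peroxins were less far down than the other genes in SG 101 and further down in the other 3 SG libraries. For the tested matrix enzymes the medians were 0.03, 0.267, 0.198 and 0.033 in SG and 0.044, -0.023, 0.032 and -0.039 in FG. SG 103 and SG 104 were above the FG libraries, and SG 101 and SG 105 lay within their range. Summed over the list, matrix enzymes reached 4783 to 5069 FPKM in FG and 5303, 6111, 5677 and 4800 FPKM in SG, where SG 105 did not exceed FG. After median-ratio scaling, the peroxin median was 0.009 with 0 of 13 called, and that of matrix enzymes and transporters 0.328 with 5 of 21 called higher. Under the same scaling 545 of all 9867 tested genes were called higher and 499 lower, with a median of 0.006. The endothelial and biliary marker sums given above were also lower in every SG library, and their part in these differences was not tested. Those sums rest mostly on few genes: Clec4g (means of 51.6 FPKM in FG and 34.7 in SG), Fcgr2b (33.3 and 27.1) and biliary Spp1 (19 and 12.4). The other endothelial markers were not called, with log2 fold changes from -0.32 (Pecam1) to 0.24 (Lyve1).

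The 6 members with the largest relative spread among the SG libraries were Abcd2, Crot, Crat, Acaa1b, Pex11a and Hacl1. Their coefficients of variation in SG were 83.6%, 41.4%, 36.2%, 32.7%, 31.1% and 29.2%. In FG the same genes had 28%, 16.4%, 41.9%, 20.5%, 5.77% and 22.6%, so that Crat varied as much there. For Crot, Acaa1b and Pex11a the highest SG library was SG 103 and the second highest SG 104. Abcd2 went the other way, with SG 103 among its lowest values. With 4 libraries a group these spreads are descriptions, and no test of them was made.

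**Figure D4:**
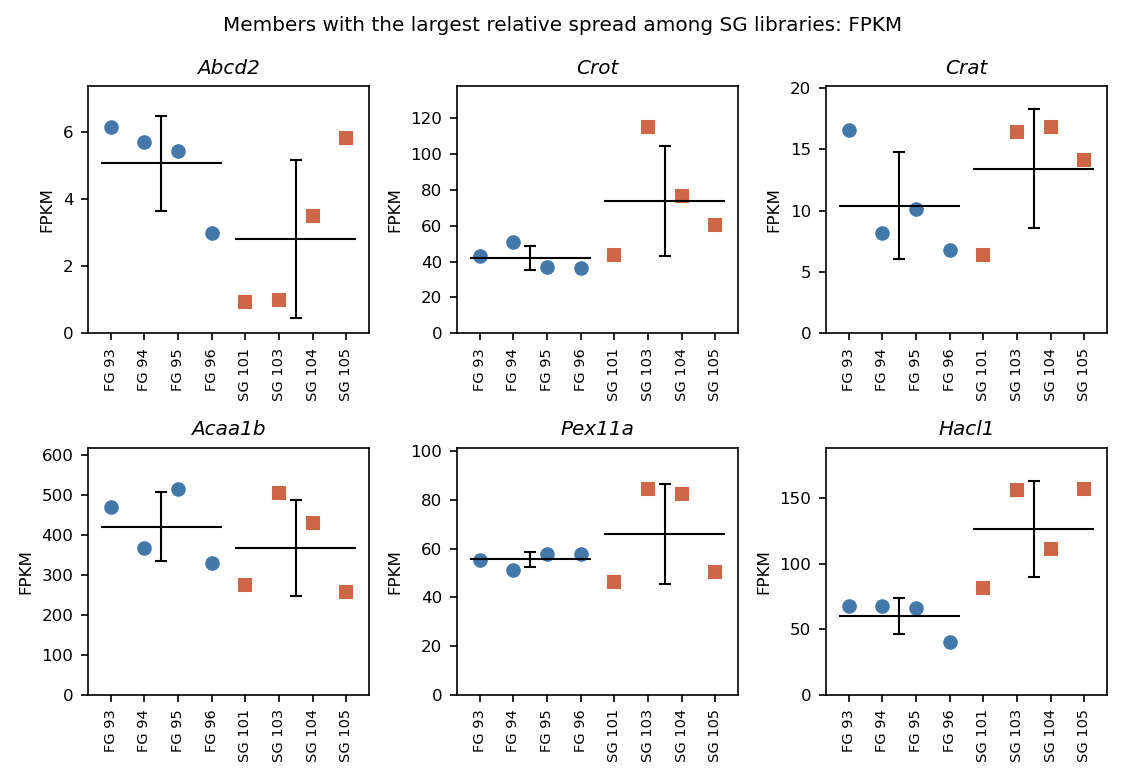
FPKM in each library (vertical axes, starting at 0; horizontal axes, library) for the 6 members with the largest coefficient of variation in SG; circles are FG, squares SG, lines group means and bars the SD of 4 libraries. Pex11a runs from 46.2 to 84.6 FPKM in SG against 51.1 to 57.9 in FG, and Abcd2 from 0.924 to 5.84 against 2.99 to 6.15.

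Promoter sequence was examined for features the members share. Of the 35 members, 28 had an entry in the RefSeq promoter table (GRCm38.p6; 250 bases before and 50 after the start, the most upstream start where there were several). Their median ratio of observed to expected CpG dinucleotides was 0.763, beside 0.384 for all 32851 promoters of that length, with 57.7% and 52.7% G and C. All promoters here means every start of every gene, not 1 per gene and not the tested genes alone. A difference from them therefore cannot show a trait particular to the members. The GC box GGGCGG was found on either strand in 21 of the 28 (75%, against 35.7% of all promoters), in 8 of 11 peroxins and 13 of 17 matrix enzymes and transporters. CCAAT, on either strand, was in 2 of 11 peroxins (18.2%) and 9 of 17 matrix enzymes and transporters (52.9%), against 37.4% of all promoters. The nuclear receptor half-site AGGTCA was in 4 members, Pex11g, Scp2, Phyh and Cat (14.3%, against 16.3%). DR1, the repeat of AGGTCA in the same orientation after 1 base of any kind, is the form PPAR-alpha binds as a dimer; on either strand it was in 0 members and 0.0396% of all promoters, and the same repeat of the looser AGGNCA in 0 members and 0.381%. These counts say only which letters stand in those windows. Among the 4 members that rose and have a promoter entry, Acox2 had the lowest CpG ratio of all 28 (0.163) and none of the GC box, CCAAT and AGGTCA motifs, while Hacl1 (0.676) held GC and CCAAT boxes and Decr2 (0.5) a GC box.

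Beyond the module, genes taken here as peroxisomal were counted from a list of 55, of which 54 were in the table and 45 tested. Where their proteins lie in the cell was not examined. Of these 45, 9 rose (20%) and 5 fell (11.1%), beside 3.73% and 15.6% of all tested genes. Together 31.1% were called, beside 19.4% of all, and the median was 0.014 on the log2 scale. After median-ratio scaling 10 rose and 0 fell, beside 545 and 499 of all 9867 tested genes. The other peroxins and division factors held 0 calls by limma in 8 tested genes, and 1 of these 8 had an unadjusted p under 0.05. Of 8 other membrane proteins, 4 rose and 2 fell, beside 3.73% and 15.6% of all tested genes. Mpv17l, a small membrane protein, rose from 2.15 ± 0.417 to 5.72 ± 1.31 FPKM (log2 fold change 1.08, limma adjusted p = 0.00367). Pxmp2, which forms a channel for small solutes, rose from 55.7 ± 9.25 to 109 ± 13.3 FPKM (adjusted p = 0.00378), and Slc27a2, a very long-chain acyl-CoA synthetase of peroxisomes and endoplasmic reticulum, from 543 ± 72.5 to 915 ± 97.8 FPKM (adjusted p = 0.00574). The remaining calls there, named to complete the count and after their values were seen, were the rise of Pxmp4 and the falls of Mpv17 and Tmem135.

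Among 16 tested enzymes of lipid handling outside the module, 2 rose (12.5%) and 2 fell (12.5%), beside 3.73% and 15.6% of all tested genes. Ephx2, an epoxide hydrolase, rose from 316 ± 32.6 to 460 ± 63.8 FPKM (limma adjusted p = 0.018). Zadh2 fell from 31.6 ± 1.05 to 25 ± 1.54 FPKM (adjusted p = 0.0223), as did Nudt7, a coenzyme A diphosphatase named after its values were seen. Among 13 oxidases and enzymes of amino acid and redox metabolism, 3 rose (23.1%) and 1 fell (7.69%). Agxt, which converts glyoxylate to glycine, rose from 39.7 ± 18.7 to 133 ± 27 FPKM (1.82 on the log2 scale, limma adjusted p = 0.00838). Urad, which acts on a product of uric acid oxidation, rose from 26.5 ± 10.6 to 61.5 ± 9.99 FPKM (adjusted p = 0.0135), while Uox, the urate oxidase before it in that pathway, fell from 1784 ± 147 to 1285 ± 150 FPKM (adjusted p = 0.0179). Pipox, which oxidises sarcosine and pipecolate, also rose and is named after its values were seen. All 5 falls in these lists, Mpv17, Tmem135, Nudt7, Zadh2 and Uox, were no longer called after median-ratio scaling (adjusted p from 0.0692 to 0.248).

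**Figure D5:**
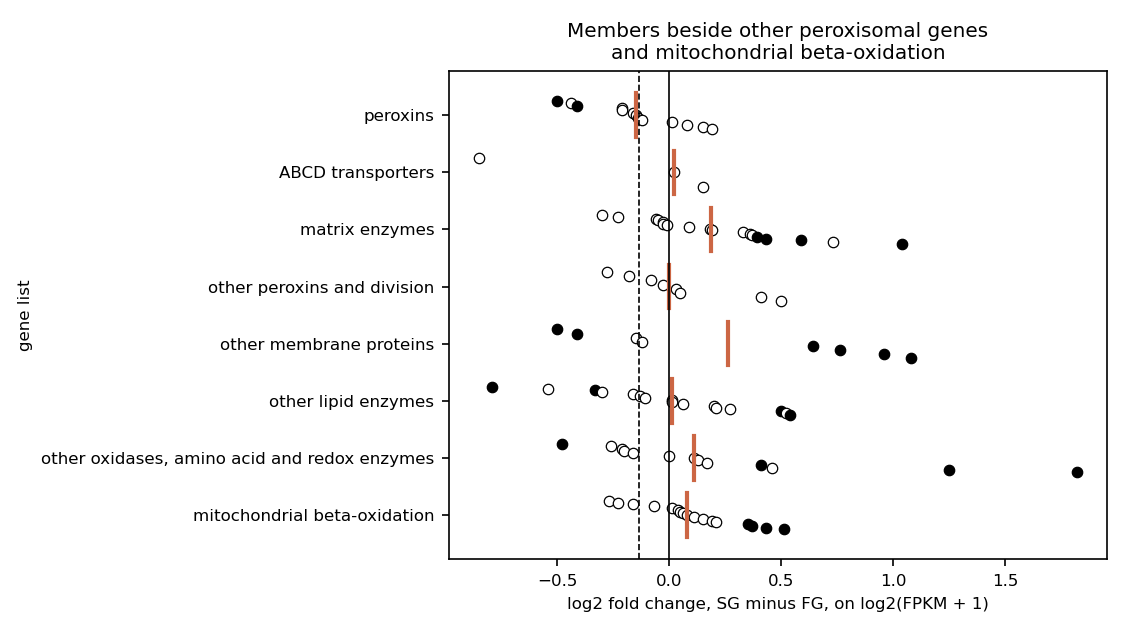
Log2 fold change of each tested gene (horizontal axis, SG minus FG on log2(FPKM + 1)) for the 3 classes of members, 4 lists of other peroxisomal genes and the mitochondrial beta-oxidation list (vertical axis); filled points were called, open points were not, orange bars are list medians and the dashed line is the median of all tested genes. Filled points of the matrix enzymes and mitochondrial list all lie right of 0, and those of the peroxins all left.

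Mitochondrial beta-oxidation, which finishes chains that peroxisomes shorten, held 4 rises and 0 falls among 17 tested genes, with a median log2 fold change of 0.077. Cpt2, carnitine palmitoyltransferase of the inner membrane, rose from 56.6 ± 1.6 to 76.6 ± 4.4 FPKM (limma adjusted p = 0.00819), Slc25a20, the carnitine carrier, from 58.9 ± 3 to 84.6 ± 10.1 FPKM (adjusted p = 0.0116), and Etfb, an electron transfer subunit, from 241 ± 14.4 to 312 ± 26.1 FPKM (adjusted p = 0.0216). The other call was Cpt1a (log2 fold change 0.35, adjusted p = 0.0398). Of the 17, 23.5% rose, beside 19% of the module's matrix enzymes and transporters and 3.73% of all tested genes. The 2 lists were not tested against each other. For Cpt2 and Slc25a20 the call held in all 8 fits without 1 library, for Etfb in 4 and for Cpt1a in 2.

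PPAR-alpha and its partners were read because they are known regulators of many members. Ppara itself was level at 44.2, 41.4, 34.1 and 44 FPKM in FG and 41.6, 41.8, 44.1 and 39.1 FPKM in SG (log2 fold change 0.03, limma adjusted p = 0.846). Its dimer partners Rxra and Rxrb had log2 fold changes of -0.19 and -0.09 (adjusted p = 0.198 and 0.517), and the related receptors Ppard and Pparg, both low in these livers, -0.29 and -0.38 (0.187 and 0.148). For the corepressor Ncor1 the difference was 0.01 on the log2 scale (adjusted p = 0.954). Among coactivators, Ncoa1 fell from 3.08 ± 0.374 to 2.09 ± 0.115 FPKM (log2 fold change -0.40, limma adjusted p = 0.0231; 0.0794 after median-ratio scaling), and Med1 and Ppargc1b, at 0.14 and -0.28, were not called (0.569 and 0.13). Ppargc1a was under the filter, at 0.682 ± 0.125 FPKM in FG and 0.764, 0.892, 2.3 and 2.38 FPKM in SG 101, 103, 104 and 105. RNA levels of a receptor do not measure its activity, which was not analysed here.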

How the data were processed

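Liver RNA of 8 mouse libraries was read as 150-base pairs, and the authors deposited 1 table of FPKM for 21358 genes. The tools fastp, HISAT2, HTSeq and DESeq2 and the builds GRCm38 and mm10 are named, without versions, per the submitters' processing notes. No source used here gives a strand setting. Beside the overlaps given above, Crat, Crot, Far1 and Pex13 share at most 166 exon bases with any 1 other gene. All expression columns matched a library by label. FPKM are not counts, so log2(FPKM + 1) was fitted with limma 3.58.1 in R 4.3.3 (all 8 libraries and no covariates; variances moderated by empirical Bayes along a mean-variance trend). Genes with at least 1 FPKM in at least 4 libraries were tested, two-sided p-values had a Benjamini-Hochberg adjustment over the 9867 genes tested, and the fit was tested on simulated data.

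FPKM steps were whole multiples of the value of 1 fragment for 100% of the 21358 genes, within 0.02 fragments. Genes at 0 in all libraries or above 0 in only 1 meet this by construction, so the share alone does not check the recovery. Totals were set by 486 genes whose recovered length equalled their exon union in GENCODE vM21. Of the alternatives, recovered counts entered limma voom, which was chosen after seeing the data, and the library factors of the rescaling without the most abundant genes.

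The members, the gene lists and the alternatives were chosen with earlier results of these data known. Values in every library are given for each called member and for the member with the highest mean FPKM of each role. Outside that rule, values in every library are also given for Abcd2, Acox3 and Acaa1b. The remaining members are given by level and range. Of the other lists up to 3 called genes with the smallest p are given, with PPAR-alpha regulators named whatever their values. A few of the genes so chosen are not reported here. Positions and promoters come from RefSeq tables for GRCm38.p6.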

Additional observations from a re-analysis of the deposited data

Results flagged for a closer look

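In 5 of 70 groups (35 members in 2 groups of 4 libraries) 1 library stood apart from the other 3, its gap to the nearest, as a share of the group's whole range, being above Dixon's 95% critical value for 4 samples. Chance alone flags about 1 group in 20 this way. Hacl1 was at 39.9 FPKM in FG 96, beside 65.8 to 67.7 in the other FG libraries, and leaving out FG 96 did not end its call. Decr2 was at 120 FPKM in SG 105, beside 150 to 153, and the Decr2 call held without SG 105. Pex19 was at 40.4 FPKM in SG 105, beside 45.4 to 45.8. Pex3 was at 13.7 FPKM in FG 94, beside 12.3 to 12.5, which lies on the side away from the SG values. Gnpat was at 17.9 FPKM in FG 93, beside 14.8 to 15.2.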

How the results depend on the processing

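Main values were 1912 genes called, 6 members called (4 higher, 2 lower), and medians of -0.145 for peroxins and 0.154 for matrix enzymes with transporters. Counts of genes called were 1133 with no filter, 1044 with median-ratio, 1036 with trimmed-mean and 1078 with quantile scaling, 2922 at an adjusted p below 0.1 and 755 with a fold of at least 1.5. For members called they were 3 with no filter, 12 with library weights, 10 at an adjusted p below 0.1 and 2 with the fold minimum. Members called higher were 1 with no filter, 7 with library weights and 2 with the fold minimum. Members called lower were 0 with median-ratio and trimmed-mean scaling and the fold minimum, 1 with quantile normalization, 5 with library weights and 4 at an adjusted p below 0.1. The peroxin median was 0.009, 0.002 and 0.003 after median-ratio, trimmed-mean and quantile scaling, and the matrix and transporter median 0.328 and 0.321 after the first 2. Without each library in turn, genes called ran from 834 (without FG 93) to 2363 (without SG 101), members called from 1 (without SG 103) to 8 (without SG 101), members higher from 1 to 5, members lower from 0 to 3, the peroxin median from -0.206 to -0.077 and the matrix and transporter median from 0.081 to 0.227. Library weights were lowest for SG 101 (0.337). Limma voom on recovered counts called 1849 genes and 6 members.

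Signs turned for members that were not called. After median-ratio and trimmed-mean scaling log2 fold changes were 0.046 and 0.039 for Pex14, 0.009 and 0.002 for Pex26, 0.024 and 0.018 for Pex11g, 0.147 and 0.14 for Hsd17b4, 0.168 and 0.161 for Scp2, 0.124 and 0.117 for Ech1, 0.145 and 0.138 for Cat, and 0.052 and 0.048 for Agps. Quantile normalization gave 0.003 for Pex14, 0.004 for Pex26, 0.01 for Pex11g and 0.058 for Agps. With library weights they were -0.012 for Abcd4, 0.059 for Hsd17b4, 0.087 for Acaa1b, 0.014 for Scp2 and 0.126 for Ech1, and rescaling without the most abundant genes gave 0.014 for Scp2. Leaving out 1 library gave -0.038 to 0.077 for Pex19, -0.018 to 0.205 for Pex13, -0.081 to 0.125 for Abcd4, -0.083 to 0.049 for Hsd17b4, -0.076 to 0.050 for Scp2, -0.138 to 0.046 for Ech1, -0.076 to 0.044 for Cat and -0.133 to 0.013 for Agps. The cause was not tested. No paired analysis was possible because the groups share no replicate numbers. Depth was lowest for Far1, on 13 to 111 fragments.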
